A study of Homo sapiens with 34 samples.

Results

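Promoters with H3K4me3 and H3K27me3 regions to which every library contributed were examined in KELLY, a cell line from a human neuroblastoma in which the MYCN oncogene is amplified. A protein-coding gene was called bivalent when, within 1 kb of any of its annotated start sites, it had a merged H3K4me3 region and a merged H3K27me3 region to each of which all 6 peak lists of that mark contributed. This held for 2573 of 19970 genes (12.9%) on chromosomes 1 to 22 and X of hg38. The members were therefore chosen on the measured presence of these marks, and the presence and size of both marks at them are given below as a description, with no test. Further genes served for comparison. The K4me3-only group (10412 genes) had such an H3K4me3 region and no H3K27me3 peak of any list within 1 kb, and the K27me3-only group (2010 genes) had the reverse.

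The cells carried a short hairpin RNA, switched on by doxycycline, that targets the transcriptional corepressor RUNX1T1, and were given the solvent DMSO or doxycycline for 72 h. Both treatments carried the hairpin, and doxycycline without it was not analysed here, so the drug and the knockdown cannot be told apart. Chromatin immunoprecipitation and sequencing (ChIP-seq) was carried out for H3K4me1, H3K4me2, H3K4me3, H3K27ac and H3K27me3, with 3 libraries per mark and treatment and 30 peak lists in all. The labels do not say that the 3 libraries came from separate cultures, so the p-values measure the spread between libraries, which may be technical.

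H3K4me3 is laid down at the start sites of CpG-rich genes and is found at active promoters. H3K27me3 is deposited by Polycomb repressive complex 2 and accompanies silencing, and promoters with both marks were first described at developmental regulators in embryonic stem cells. H3K27ac marks active promoters and enhancers and uses the same lysine as H3K27me3, so that one histone tail cannot hold both, while H3K4me1 is known from enhancers and from the flanks of active promoters. In bulk ChIP-seq, both marks at one promoter can come from one nucleosome, from the alleles of one cell or from different cells, which cannot be told apart here, and these data come from a single cell line.

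The depth at which peaks were called, the smaller of ChIP and input, ranged from 71.9 to 81.1 M reads under DMSO and from 57.0 to 63.4 M under doxycycline (15 libraries each), with no overlap, so that depth and treatment cannot be told apart. The RUNX1T1 promoter belonged to the K4me3-only group and had H3K27ac in all 6 lists, which does not measure the knockdown. Of 10 adrenergic neuroblastoma markers, all 10 were in the K4me3-only group with H3K27ac in all 6 lists. Of 10 markers of other cell types, 0 were K4me3-only, 3 were K27me3-only and 1 was bivalent (MYOD1, the muscle determination factor), while 2 (MYOG and INS) had H3K27ac in all 6 lists and 7 in none.

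Stretches just upstream of the canonical start are shown for members with the longest mean overlap of both marks, so that the CpG density of such promoters can be seen. Each is the longest run without an annotated exon in the 250 bases before the start, from hg38, 5′ to 3′ on the strand of the gene, with CpG dinucleotides in capitals. DMRTA2, a doublesex-related gene of cortical patterning, had no H3K27ac peak in any list.
DMRTA2, chr1:50423444-50423608, minus strand: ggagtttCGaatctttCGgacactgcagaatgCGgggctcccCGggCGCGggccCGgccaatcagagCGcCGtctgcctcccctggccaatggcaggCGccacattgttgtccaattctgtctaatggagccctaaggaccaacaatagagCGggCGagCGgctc
The following 2 members had H3K27ac in all 6 lists. FOXC1 is a forkhead gene of mesenchyme and eye, and PAX5 is the paired-box gene of B cells. The third by this rule, FLRT2, which encodes a membrane protein of axon guidance, is named only.
FOXC1, chr6:1609665-1609914, plus strand: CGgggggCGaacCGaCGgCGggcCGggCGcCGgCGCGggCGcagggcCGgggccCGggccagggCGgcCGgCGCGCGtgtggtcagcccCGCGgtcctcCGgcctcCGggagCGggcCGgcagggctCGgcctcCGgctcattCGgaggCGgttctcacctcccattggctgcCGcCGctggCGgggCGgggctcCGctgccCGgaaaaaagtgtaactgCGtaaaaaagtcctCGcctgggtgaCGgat
PAX5, chr9:37034269-37034518, minus strand: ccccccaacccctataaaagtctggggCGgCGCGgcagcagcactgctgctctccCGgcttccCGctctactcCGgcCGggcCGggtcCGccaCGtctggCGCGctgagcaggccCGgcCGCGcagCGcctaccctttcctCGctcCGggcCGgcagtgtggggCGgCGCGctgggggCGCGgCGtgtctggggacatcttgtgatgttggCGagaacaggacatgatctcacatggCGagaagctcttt
For contrast, the K4me3-only gene and the K27me3-only gene with the longest mean cover of their mark were HAND2, a bHLH factor of the sympathetic lineage, and AIRE, the thymic autoimmune regulator. The cover of AIRE filled the whole 10 kb around its start, so other genes can equal it, and ties were broken by alphabetical order.
HAND2, chr4:173530230-173530352, minus strand: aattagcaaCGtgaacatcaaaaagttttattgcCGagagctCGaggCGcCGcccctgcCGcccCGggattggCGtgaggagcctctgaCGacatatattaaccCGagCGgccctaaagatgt
AIRE, chr21:44285626-44285837, plus strand: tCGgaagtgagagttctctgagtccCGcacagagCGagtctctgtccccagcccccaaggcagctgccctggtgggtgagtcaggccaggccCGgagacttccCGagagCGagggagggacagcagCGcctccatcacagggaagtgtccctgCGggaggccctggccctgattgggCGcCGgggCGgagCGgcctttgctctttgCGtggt
The FOXC1 stretch held 37 CpG in 250 bases and the PAX5 stretch 27 in 250. DMRTA2 held 13 in 165 bases. HAND2 held 11 in 123 bases and AIRE 13 in 212.

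Over all members, the 1 kb around the canonical start had a median GC content of 65.8% and a median observed-to-expected CpG ratio of 0.771. With CpG-rich defined as a GC content of at least 50% and a ratio of at least 0.6, 2090 of the 2573 members were CpG-rich (81.2%), against 85.9% of K4me3-only genes, 13.9% of K27me3-only genes and 64.9% of all genes. In base composition the members thus lay beside the K4me3-only genes, whose median ratio was 0.787, and far from the K27me3-only genes, at 0.270. AIRE, the K27me3-only gene shown above, had a ratio of 0.594. That is above the upper quartile of its group (0.445), so its stretch is not typical of K27me3-only genes. The TATA box core TATAAA (either strand, in the 250 bases before the canonical start) was present at 6.26% of members, 4.69% of K4me3-only, 20.7% of K27me3-only and 9.36% of all genes. The other motifs were searched in the same way. Their shares follow in the order members, K4me3-only, K27me3-only and all genes. CACGTG, the E-box bound by MYC proteins, was found at 7.93, 9.36, 5.97 and 7.86%. CATCTG, an E-box of bHLH factors, was found at 7.0, 7.1, 16.5 and 9.17%. TGTGGT, the core bound by RUNX factors, was found at 7.46, 6.73, 15.2 and 8.85%, and CCAAT at 29.7, 35.9, 34.7 and 34.3%. These are letter matches in a fixed window and not bound sites.

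The marks that chose the members differed in size from those of the comparison groups. The H3K4me3 region of a member had a median length of 1831 bp (quartiles 1311 and 2411 bp), and that of a K4me3-only gene 2632 bp. Its H3K27me3 region had a median of 14060.0 bp (quartiles 6305 and 38728 bp), and that of a K27me3-only gene 35036 bp. Within each list, the best H3K4me3 peak of a member stood at a median percentile of 55.7 by −log10 q (mean of 6 lists) and that of a K4me3-only gene at 79.0, whereas the best H3K27me3 peak stood at 94.1 in members and 88.4 in K27me3-only genes. By these medians, members had shorter H3K4me3 regions and lower-ranked H3K4me3 peaks than K4me3-only genes, beside H3K27me3 peaks near the top of each list. In members with H3K27ac in no list, 1 to 5 lists and all 6, the H3K4me3 percentile was 40.3, 53.2 and 75.4. Their median H3K4me3 region was 1288, 1772 and 2284 bp, and their H3K27me3 percentile 96.2, 93.2 and 90.1. Members had more annotated starts than K27me3-only genes (medians 6 and 2), and the part of this in the best-peak percentiles was not tested.

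Both regions lay within 1 kb of the same start site in 2317 members (90.1%), and they overlapped in 2119 (82.4%). At the canonical start itself, both were within 1 kb in 1996 members (77.6%). In lists of the same treatment and number, peaks of both marks overlapped in the 10 kb around that start in 64.5 to 74.6% of members. The members outside the 2317 had the marks at different start sites of one gene. Members had a median of 6 annotated starts, against 7 in K4me3-only and 2 in K27me3-only genes. Some members shared a region, with 624 of them sharing an H3K27me3 region with at least one other member. The most shared region (85.2 kb on chromosome X, 49528369 to 49613606) covered 7 GAGE genes, whose near-identical copies make the assignment of reads uncertain. A region of 114 kb on chromosome 12 (53881113 to 53995128) held the HOXC10, HOXC13, HOXC6 and HOXC9 starts, and one of 36.1 kb on chromosome 16 (144137 to 180192) held HBA1, HBA2, HBM, HBQ1 and HBZ of the alpha-globin cluster, of which HBA1 and HBA2 are near-identical. The share of bivalent genes ranged from 8.88% on chromosome 11 to 15.7% on chromosome 7.

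The rule has a sharp edge in the number of lists. With an H3K27me3 region of 5 lists in place of 6, 194 genes would be added, and with 1 list 1391. In the 194, H3K27ac peaks were present at 78.6% of genes (mean of 6 lists), against 52.8% in members. An H3K4me3 region of 5 lists would add 109 genes. A merged region counts all lists that touch it anywhere, so a member need not have a peak of every list at its start. H3K27me3 peaks of all 6 lists lay within 1 kb of a start at 2053 members (79.8%) and H3K4me3 peaks of all 6 at 2559 (99.5%). By list, an H3K27me3 peak lay within 1 kb at 94.9, 85.1 and 85.5% of members in DMSO and at 97.6, 93.1 and 87.5% in doxycycline.

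**Figure D1:**
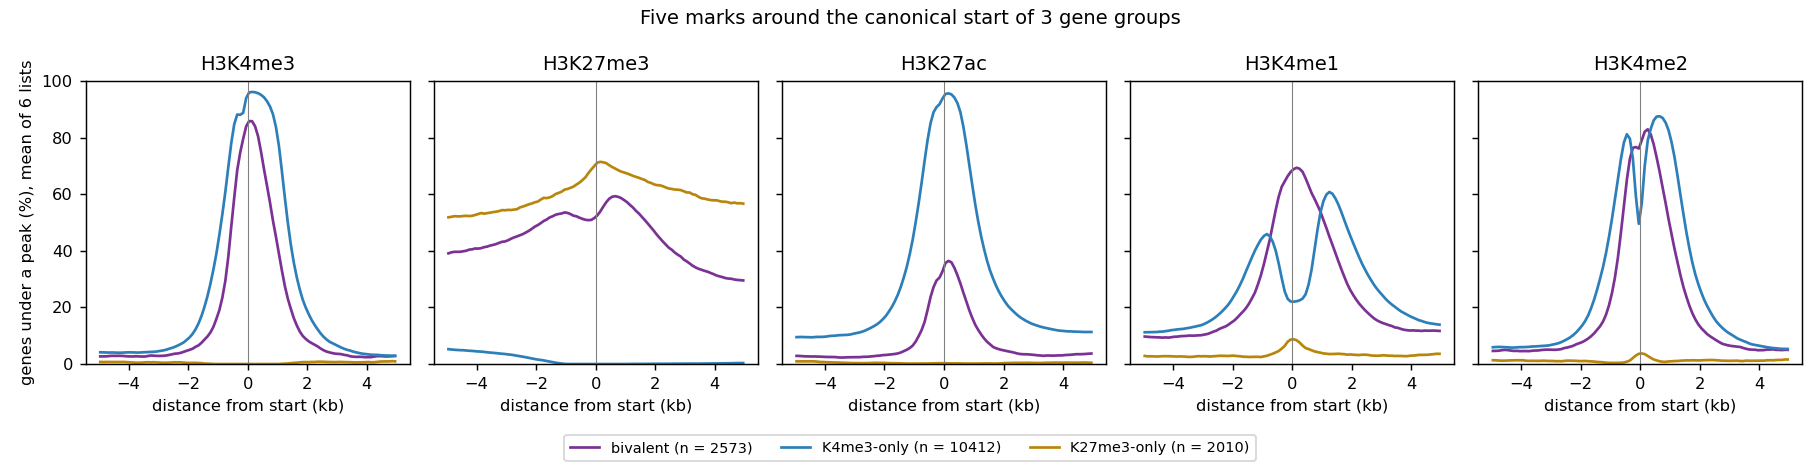
Share of genes under a peak (%, mean of 6 lists) against the distance from the canonical start (kb, upstream negative) for the 5 marks, in bivalent, K4me3-only and K27me3-only genes. H3K27ac at the start reached 34.2% of bivalent and 94.6% of K4me3-only genes, and H3K4me1 covered the start in 68.4% and 22.1%.

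H3K27ac was not used by the rule, and it set the members apart from both groups. A peak was present within 1 kb of a start at 56.4, 52.0 and 49.7% of members in the 3 DMSO lists and at 56.8, 51.8 and 50.1% in the 3 doxycycline lists. In K4me3-only genes the share was 98.9% ± 0.386 and in K27me3-only genes 1.11% ± 0.217 (SD, n = 6 lists). The 6 values of the members thus lay between those of both groups and overlapped neither. The difference was -46.0 percentage points from K4me3-only genes and 51.7 percentage points from K27me3-only genes, each in the same direction in 6 of 6 lists (exact two-sided sign-flip test, p = 0.03125, the smallest it can give, Benjamini-Hochberg adjusted over 9 comparisons 0.0402). Covered length, the bases under peaks in the 10 kb around the canonical start, was 798 ± 102 bp for H3K27ac in members and 3016 ± 227 bp in K4me3-only genes (SD, n = 6), a difference of -2218 bp in the same direction in 6 of 6 lists (exact sign-flip p = 0.03125, adjusted 0.0402).

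H3K4me1 was present within 1 kb of a start at 99.1, 95.7 and 96.0% of members in DMSO and at 98.6, 95.2 and 96.2% in doxycycline. These were the higher shares in 6 of 6 lists when set against K4me3-only genes (88.8% ± 4.78, SD, n = 6), by 8.0 percentage points (exact sign-flip p = 0.03125, adjusted 0.0402), and against K27me3-only genes (18.2% ± 3.8), by 78.6 percentage points (exact sign-flip p = 0.03125, adjusted 0.0402). The difference from K4me3-only genes depended on how a promoter was defined, at 24.4 percentage points with 500 bp, 3.51 with 2.5 kb, 14.2 with canonical starts and 17.4 with peaks of q 0.001 or less, and passed the test in each. The length covered by H3K4me1 went the other way, at 2527 ± 280 bp in members and 2663 ± 376 bp in K4me3-only genes, a difference of -136 bp that held in 5 of 6 lists and did not pass the test (exact sign-flip p = 0.09375, adjusted 0.105). It was 420.0 bp, with the sign turned, when peaks of q 0.001 or less were used, and -264 bp with a 2.5 kb promoter, where it passed (exact sign-flip p = 0.03125, adjusted 0.0352).

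The placement of H3K4me1 differed as well. In members it lay over the start, and in K4me3-only genes it dipped there and rose on both sides. H3K4me1 covered the canonical start base in 74.5, 68.4 and 62.0% of members in DMSO and in 75, 68.4 and 62.3% in doxycycline. The same base was covered in 26.7, 24.2 and 16.3% of K4me3-only genes in DMSO and in 26.7, 23.5 and 14.9% in doxycycline. The difference was 46.4 percentage points and held in 6 of 6 lists (exact sign-flip p = 0.03125, not adjusted, a comparison chosen after seeing the data). At 2 kb downstream the order was turned, with H3K4me1 over 25.3% ± 3.48 of members and 44% ± 6.52 of K4me3-only genes (SD, n = 6).

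H3K4me2 did not separate members from K4me3-only genes by presence. A peak was found at 97.6 to 99.96% of members over the 6 lists, with a mean of 99.1% ± 0.815 against 99.1% ± 0.744 in K4me3-only genes (SD, n = 6). The difference was 0.0312 percentage points, with a range over the lists of -0.402 to 0.381 (exact sign-flip p = 0.78125, adjusted 0.781). K27me3-only genes had H3K4me2 at 7.75% ± 7.81, a difference of 91.3 percentage points (6 of 6 lists, exact sign-flip p = 0.03125, adjusted 0.0402). In length the members had less H3K4me2 than K4me3-only genes, at 2026 ± 372 and 2769 ± 443 bp, a difference of -743 bp in 6 of 6 lists (exact sign-flip p = 0.03125, adjusted 0.0402).

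**Figure D2:**
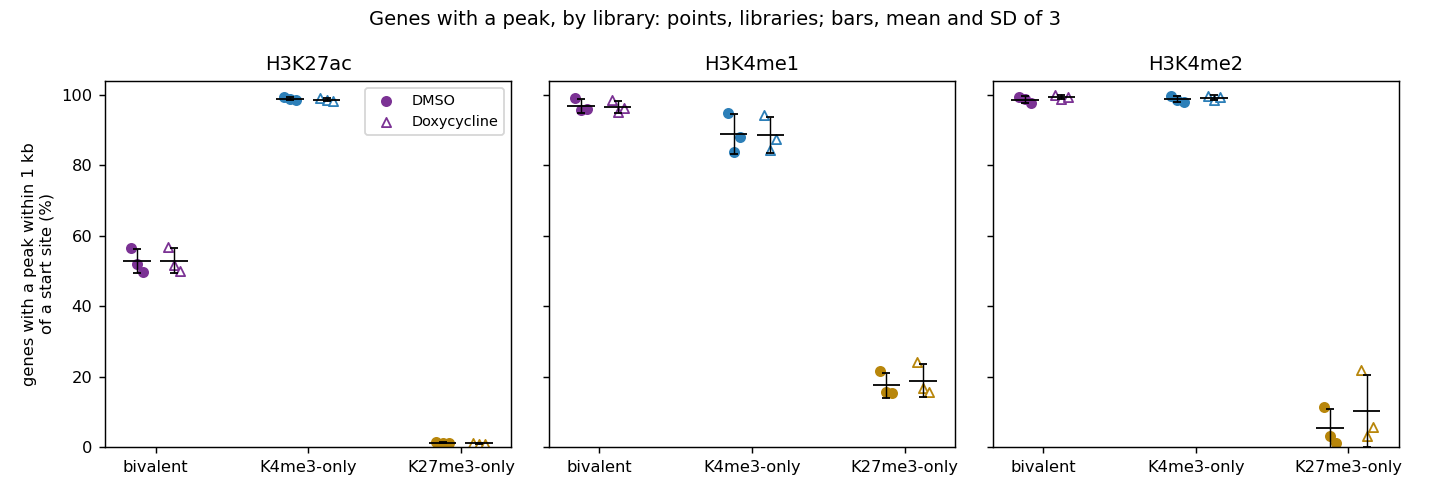
Share of genes with a peak within 1 kb of a start (%) for H3K27ac, H3K4me1 and H3K4me2 in the 3 gene groups, one point per library (filled circles DMSO, open triangles doxycycline), with the mean and SD of 3. Bivalent genes sat between the other groups in H3K27ac, at 49.7 to 56.8%, and near the K4me3-only genes in H3K4me2.

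Genes differ in how many start sites they have, and more starts give more chances of a peak. Among genes with 1 annotated start (291 bivalent, 816 K4me3-only and 712 K27me3-only), the H3K27ac difference from K4me3-only genes was -62.3 percentage points and the H3K4me1 difference 12.7 (exact sign-flip p = 0.03125, adjusted 0.0402 for each, chosen after seeing the data). The H3K27ac difference from K27me3-only genes was smaller in these genes, at 35.2 percentage points against 51.7 in the full groups. It was 36.5 with canonical starts, 37.4 with peaks of q 0.001 or less, 45.4 with 500 bp and 59.7 with 2.5 kb, and passed the test in each.

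H3K27ac also divided the members among themselves. It was absent from all 6 lists in 999 members (38.8%), present in 1 to 5 lists in 416 (16.2%) and present in all 6 in 1158 (45.0%). These 3 classes are described below without a test. In the order none, some and all, the H3K4me3 covered length rose from 1232 to 1778 and 2104 bp (means over 6 lists), while the H3K27me3 covered length was 6239, 4407 and 2942 bp. This order of H3K27me3 held in each of the 6 lists, for example with 7571, 5592 and 3836 bp in DMSO library 1 and 4718, 3009 and 1854 bp in DMSO library 3. The mean length under both marks at once was 1055 bp without H3K27ac, 1165 bp with some and 486 bp with H3K27ac in every list. The medians were 950, 1095 and 45.6 bp, so many members with H3K27ac in every list had few bases under both marks around the canonical start.

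Geometry went with these classes. In the order none, some and all, the median number of annotated starts was 4, 5 and 8, and its part in the geometry was not tested. The merged H3K4me3 and H3K27me3 regions overlapped in 98.7% of members without H3K27ac and in 64.2% of those with H3K27ac in all lists. H3K27me3 covered the canonical start in 83.2% ± 10.6 of members without H3K27ac (SD, n = 6 lists). With H3K27ac in all lists it covered the start in 22.5% ± 6.17, the position 2 kb downstream in 23.4% ± 7.4 and that 2 kb upstream in 42.0% ± 16.5, and the upstream value was the highest of the 3 in each of the 6 lists. Base composition did not go with the classes, with a CpG-rich share of 81.1% without H3K27ac, 81.5% with some and 81.3% with all. H3K4me1 over the start was found in 82.1% ± 5.09 of members without H3K27ac and in 51.0% ± 7.26 of those with it in all lists.

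**Figure D3:**
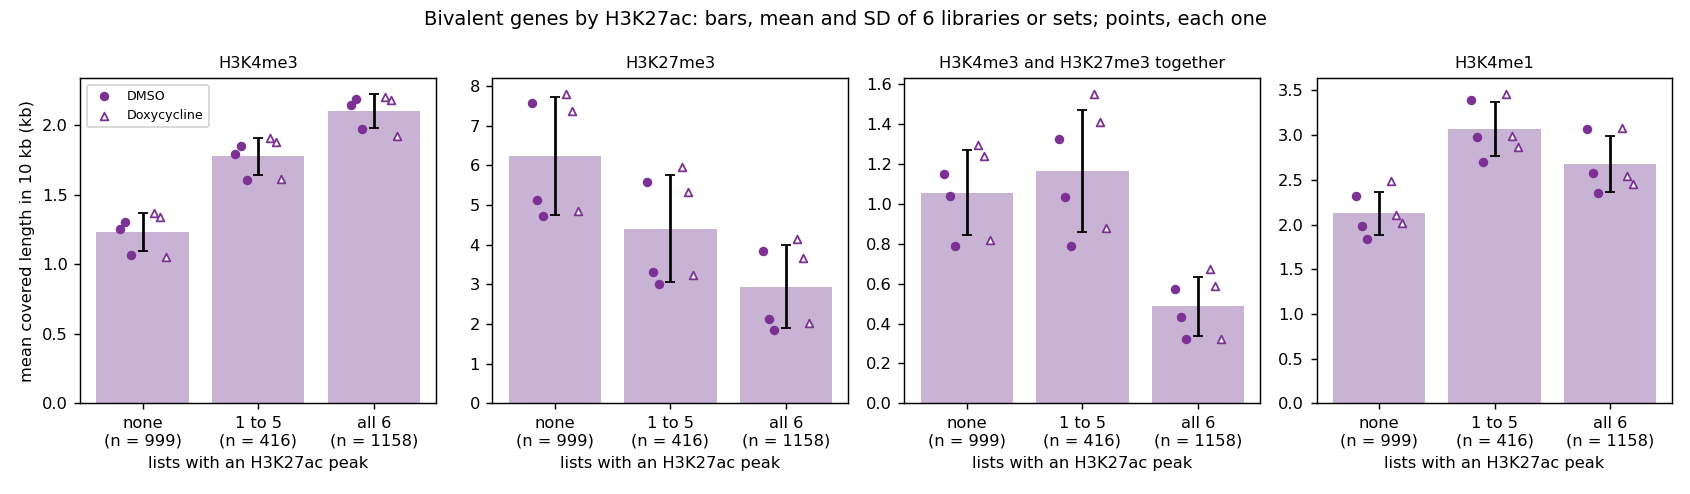
Mean covered length in the 10 kb around the canonical start (kb) in bivalent genes grouped by the number of lists with an H3K27ac peak, for H3K4me3, H3K27me3, the bases under both, and H3K4me1. Bars are means and SD of 6 libraries or sets and points are each one, and H3K27me3 was longest in the 999 genes without H3K27ac in every library.

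At the level of bases, the marks shared H3K27me3 to different extents. Sets of same-treatment, same-numbered lists were intersected in the 10 kb around the members' starts. In DMSO, 52.7, 42.7 and 37.0% of H3K4me3 bases were also under an H3K27me3 peak, and in doxycycline 57.7, 53.9 and 39.4%. For H3K27ac bases the shares were 13.6, 6.79 and 4.37% in DMSO and 19.6, 13.6 and 4.93% in doxycycline, lower than those of H3K4me3 in 6 of 6 sets. H3K27me3 covered 31.5 to 58.6% of the whole 10 kb over all members, and the H3K27ac shares were under this level in each set. That level mixes genes with and without H3K27ac. Mean H3K27ac cover was 1565 bp in members with it in all 6 lists and 44.2 bp in those with it in none. Mean H3K27me3 cover was 2942 and 6239 bp in these classes. The part of this difference between genes in the low H3K27ac shares was not tested. In DMSO sets 2 and 3 and doxycycline set 3 the level was 34.8, 31.5 and 33.2%. There the H3K4me3 shares were above it, at 42.7, 37.0 and 39.4%, and so were the H3K4me1 shares, at 45.2, 42.4 and 45.4%. In the other sets the level was 53.7 to 58.6%, and the H3K4me3 and H3K4me1 shares were nearer to it. H3K4me1 bases were under H3K27me3 at 42.4 to 59.8%.

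**Figure D4:**
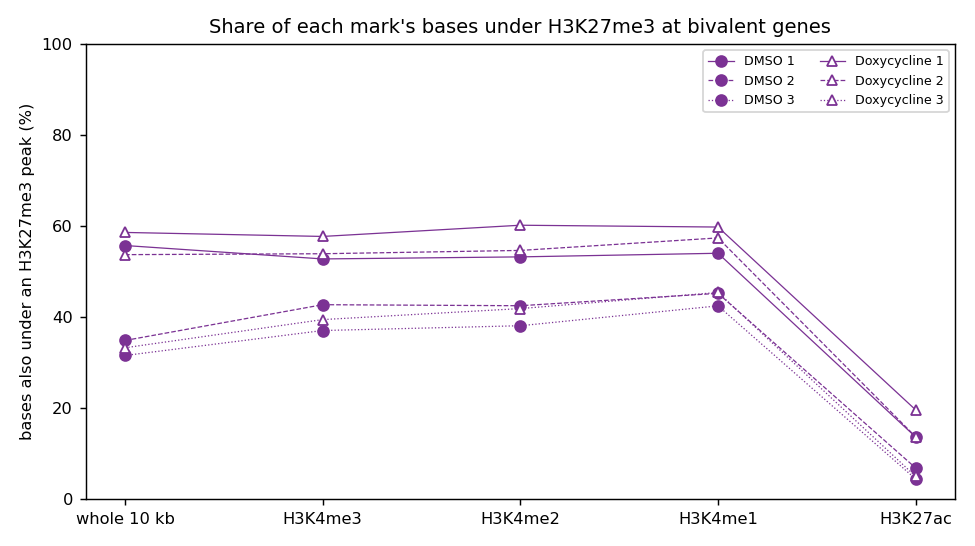
Share of the bases of each mark that were also under an H3K27me3 peak (%) in the 10 kb around the starts of bivalent genes, with one line per set of same-treatment, same-numbered lists (filled circles DMSO, open triangles doxycycline). H3K27ac lay at 4.37 to 19.6%, under every other mark in each set.

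The members with the longest overlap of H3K4me3 and H3K27me3 were LHX1, FOXC1, ADCYAP1, FEZF2 and CYP26B1. At LHX1, a LIM-homeobox gene of early kidney and head development (chromosome 17, 36936785 to 36944612) both marks shared 3916, 3995 and 3864 bp in DMSO and 6763, 6571 and 6367 bp in doxycycline, with H3K27me3 over all 10 kb in all 6 lists. The 3 doxycycline sets lay above the 3 DMSO sets, which is given as a description because the gene was chosen for its overlap. At FOXC1 (chromosome 6, 1609915 to 1613897) the shared length was 6229, 3840 and 2877 bp in DMSO and 7611, 6887 and 2656 bp in doxycycline, so the treatments overlapped. ADCYAP1, which encodes the neuropeptide PACAP, had a mean of 4551 bp, FEZF2, a zinc finger gene of forebrain neurons, 4549.5 bp and CYP26B1, a retinoic acid-degrading enzyme, 4538 bp.

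The longest H3K4me3 cover among members was at NR2F2 (7835 bp, mean of 6 lists), HES7 (7444 bp), PCDH10 (7177 bp), FOXC1 (7041 bp) and EBF3 (6976 bp). NR2F2 is an orphan nuclear receptor, HES7 a bHLH oscillator of somites, PCDH10 a protocadherin and EBF3 a neuronal transcription factor. NR2F2 had H3K27me3 peaks of 3 lists within 1 kb of its starts and only 171 bp of H3K27me3 cover on average. PCDH10 had 3095, 2880 and 2747 bp of H3K27ac in DMSO and 801, 0 and 893 bp in doxycycline, without overlap, given as a description for a gene chosen by its H3K4me3.

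The longest H3K27ac cover was at PLCH2 (9354 bp), a phospholipase C, HOXC6 (9013 bp) and HOXC9 (8324 bp), GNAS (8286 bp), the imprinted gene of a G protein subunit, and H3C13 (7403 bp), a replication-dependent histone gene with near-identical copies. At the canonical start of PLCH2, HOXC6, HOXC9 and GNAS, H3K27me3 covered 0 bp of the 10 kb in all 6 lists, so that these genes were members through another start site.

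Gene families were then counted in the members, to see which classes of genes kept both marks. The share of bivalent genes in each list stands beside the 12.9% of all protein-coding genes, with no test. WNT ligands had the highest share, with 11 of 19 genes (57.9%), among them WNT10B, WNT11, WNT16 and WNT2. Their frizzled receptors had 4 of 10, FZD1, FZD7, FZD8 and FZD9, and secreted WNT inhibitors with 2 of 10, SFRP2 and SFRP5. FGF ligands had 10 of 22 (45.5%), including FGF10, FGF11, FGF12 and FGF13, and BMP and GDF ligands 7 of 20 (35%), including BMP2, BMP4, BMP6 and BMP8A.

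Transcription factors of the embryo were frequent. Homeobox genes outside the HOX clusters had 57 of 123 members (46.3%), including ALX4, BARHL1 and BARHL2, and 41 of these 57 had no H3K27ac in any list. In these 57 genes the median H3K27me3 cover was 9389 bp, against 3929.5 bp over all members. SOX genes had 9 of 19, GATA genes 3 of 6 (GATA4, GATA5 and GATA6), PAX genes 4 of 9 (PAX2, PAX5, PAX6 and PAX7) and T-box genes 5 of 15 (EOMES, TBR1, TBX1 and TBX18 among them). Developmental bHLH genes had 18 of 57, with ASCL2, ATOH1, ATOH8 and BHLHE22 among them, and forkhead genes 12 of 45.

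HOX genes themselves were spread over the groups. Of 39, 11 were bivalent (HOXA13, HOXA4 and HOXB7 among them), 7 were K4me3-only and 11 K27me3-only. Of the 11 bivalent HOX genes, 4 had H3K27ac in all 6 lists and 5 in none.

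Genes of excitable cells were also represented. Potassium channel genes had 38 of 95 members (40.0%), among them KCNA2, KCNA3, KCNA4 and KCNA6, of which 13 had H3K27ac in all 6 lists and 18 in none. Calcium and sodium channel genes had 9 of 40, glutamate receptor genes 5 of 26 and GABA and glycine receptor genes 6 of 25. Among guidance genes, ephrins and EPH receptors had 7 of 22, including EFNA2, EFNA3, EPHA4 and EPHA5, and semaphorins, netrins, slits and their receptors 10 of 49. Collagens had 9 of 44. The list named classical and desmosomal cadherins held CDH genes only, with no desmoglein or desmocollin gene. It had 3 of 23 members (13%), CDH8, CDH15 and CDH23, near the 12.9% of all protein-coding genes.

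Other lists had few or no members. Cytosolic ribosomal protein genes had 0 of 77 (75 were K4me3-only), H3K4 methylation genes 0 of 16, replication and cell cycle genes 1 of 46 (RPA2), proteasome genes 3 of 39 and clustered protocadherins 1 of 53 (PCDHB8). Keratins had 2 of 55, KRT8 and KRT18 of simple epithelia, while 34 were K27me3-only. Olfactory receptors had 1 of 415, OR1F1, with 139 K27me3-only. Zinc finger genes of chromosome 19 had 22 of 240 (9.17%), of which 18 had H3K27ac in all 6 lists and 14 had overlapping regions. Their median length under both marks was 16 bp, against 741 bp over all members.

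**Figure D5:**
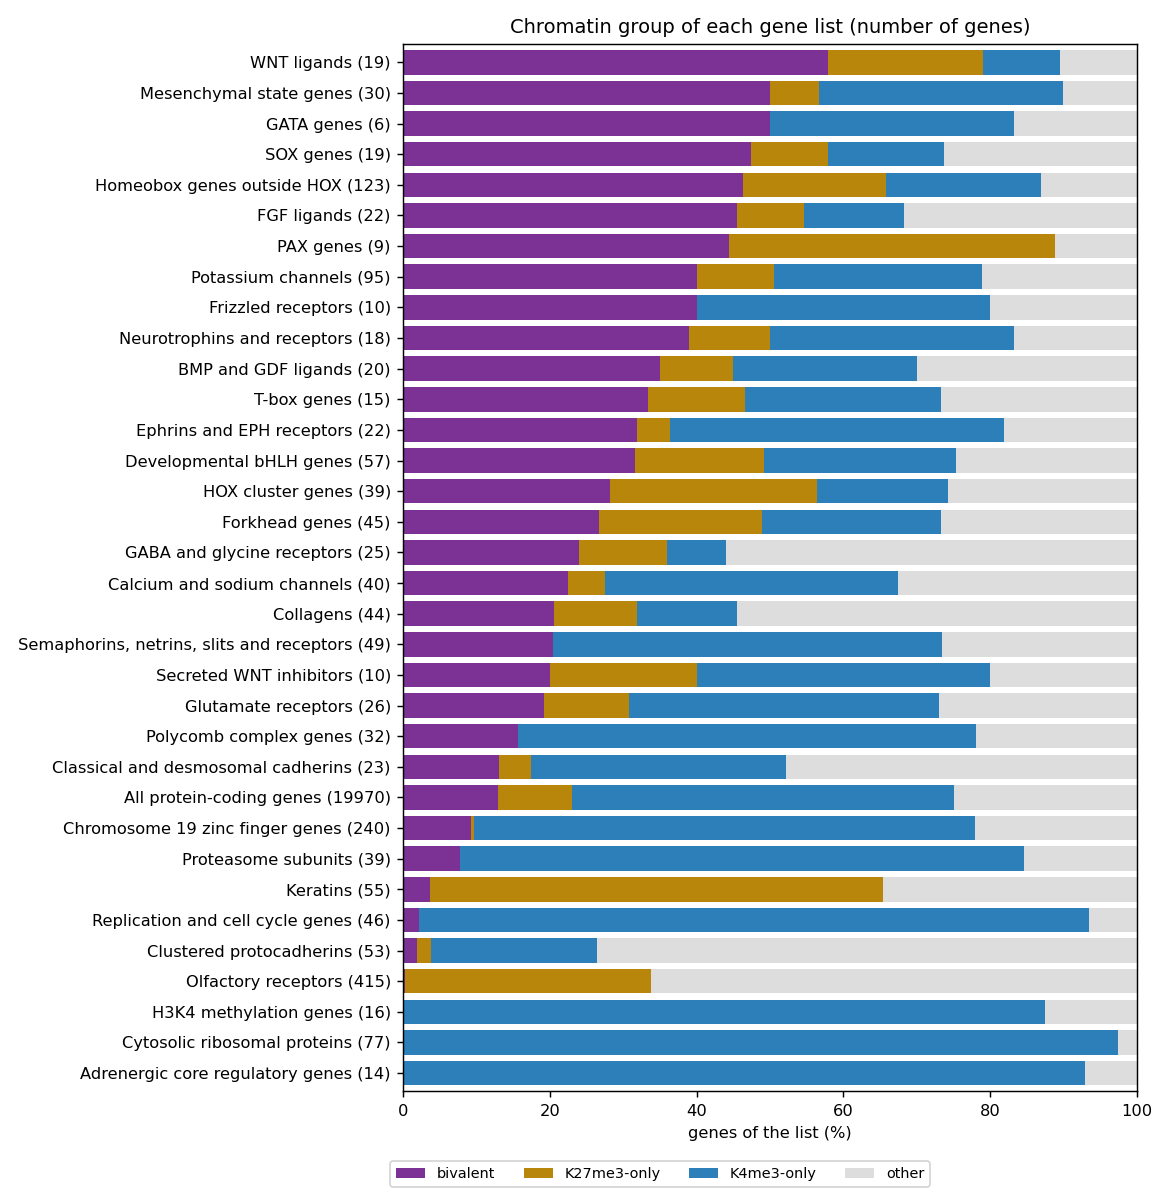
Share of the genes of each list (%) that were bivalent, K27me3-only, K4me3-only or in none of these groups, ordered by the bivalent share, with the number of genes in brackets. WNT ligands reached 57.9% bivalent, all protein-coding genes 12.9%, and adrenergic core regulatory genes 0.

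Neuroblastoma cells are known to take an adrenergic or a mesenchymal state, and both gene sets were examined. The 14 adrenergic core regulatory genes held 0 members. Of these, 13 were K4me3-only (including PHOX2A, HAND2 and ISL1), and H3K27ac covered all 10 kb on average (10000 bp) at genes including GATA2, GATA3, HAND2 and TBX2. The exception was MYCN, the amplified oncogene, where H3K4me3 peaks were called in 2 DMSO lists and 1 doxycycline list, H3K27ac in 3 and 0, and H3K27me3 in 0 of 6. The part of copy number in these calls was not tested, and the calling depth was lower in doxycycline. A missing peak at MYCN is therefore not an absence of signal.

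The 30 mesenchymal state genes held 15 members (50%), among them CD44, GLIS3, MEOX2, NOTCH2, RUNX1, RUNX2, VIM, WWTR1 and YAP1. Of these, 9 had no H3K27ac in any list, among them PRRX1, a homeobox factor of mesenchyme, and FOSL1, an AP-1 subunit. H3K27ac was in all 6 lists at NOTCH3, SOX9 and TBX18. VIM, which encodes vimentin, had 2481, 2012 and 1721 bp under both marks in DMSO and 2440, 2166 and 2140 bp in doxycycline, so the treatments overlapped, and H3K27ac was in 1 of 6 lists. YAP1, a coactivator of the Hippo pathway, had 2408, 2355 and 1857 bp in DMSO and 2129, 2256 and 1958 bp in doxycycline. SOX9 had 2422 to 3506 bp of H3K27ac in DMSO (median 3427) and 3375 to 5607 bp (median 5024) in doxycycline, which overlapped. NOTCH3 had 0 bp under both marks in the 3 DMSO sets and 889, 558 and 412 bp in doxycycline. Its own H3K27me3 peaks lay within 1 kb in 0 DMSO lists and in 3 doxycycline lists. In the 10 kb around its start, H3K27me3 covered 3394, 2917 and 1397 bp in DMSO and 5553, 5113 and 1969 bp in doxycycline. RUNX1 and RUNX2 had 0 bp under both marks around the canonical start in all 6 sets, so their marks met elsewhere in these long genes. Another 10 of the 30 genes were K4me3-only, with SNAI1, TWIST1, ZEB1 and ZEB2 among them, and MEOX1 and TWIST2 were K27me3-only.

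Neurotrophin and GDNF family genes, which act in sympathetic neurons, held 7 members of 18. Of the ligands, GDNF, NRTN, NTF3 and NTF4 were bivalent and ARTN was K4me3-only. Of the receptors, NTRK2, NTRK3 and NGFR were bivalent, while RET, GFRA2, GFRA3 and SORT1 were K4me3-only and GFRA4 K27me3-only. NTRK3, the receptor of neurotrophin-3, had 3035, 2734 and 1852 bp under both marks in DMSO and 3017, 2983 and 1861 bp in doxycycline. The 3 pairs of values were close and the treatments overlapped. H3K27ac was present within 1 kb of a start of NTRK3 in all 6 lists, with 0 bp in the 10 kb around its canonical start, whereas NTRK2 had none in any list. BDNF, GFRA1 and PSPN were in none of the groups.

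Polycomb genes were counted as well, since their products write and read H3K27me3. Of 32, 5 were bivalent (15.6%), near the 12.9% of all protein-coding genes, and all 5 had H3K27ac in 6 of 6 lists. Among them, BMI1 and CBX7 are subunits of repressive complex 1, EPOP is an accessory subunit of complex 2 and KDM6B is an H3K27 demethylase. At BMI1 both marks shared 695, 450.0 and 766 bp in DMSO and 1291, 758 and 876 bp in doxycycline, with overlap between treatments. The catalytic subunit genes EZH1 and EZH2 were in none of the groups, and SUZ12 and EED were K4me3-only.

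The treatments were compared over the members to ask whether doxycycline shifted the marks at bivalent promoters. With 3 libraries against 3 the smallest p of an exact two-sided permutation test is 0.1, so no comparison could reach 0.05. The H3K27ac share was 52.7% ± 3.41 in DMSO and 52.9% ± 3.47 in doxycycline (SD, n = 3 each), a difference of 0.220 percentage points (exact permutation p = 0.8, adjusted over 6 comparisons 0.8). For H3K4me1 the shares were 96.9% ± 1.87 and 96.7% ± 1.74 (difference -0.233, exact permutation p = 0.8, adjusted 0.8) and for H3K4me2 98.7% ± 1.00 and 99.5% ± 0.526 (difference 0.713, exact permutation p = 0.5, adjusted 0.8). In H3K27ac and H3K4me1 the difference was below both SDs, and the values overlapped in all 3 marks.

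The lengths of the marks that chose the members are given by treatment as a description, with no test. H3K4me3 covered 1700.1 ± 120 bp in DMSO and 1725 ± 164 bp in doxycycline, a difference of 25.1 bp. H3K27me3 covered 5570.0, 3483 and 3153 bp in the DMSO lists and 5858, 5369 and 3322 bp in the doxycycline lists, a difference of means of 781 bp, and the treatments overlapped. The 3 long values came from the lists with a fragment length estimate of 256, 265 and 280 bp, and the 3 short ones from those with 105, 108 and 112 bp. This estimate therefore moved with the length of H3K27me3, and its part in the result was not tested. Bases under both marks were 919, 765 and 579 bp in DMSO and 1057, 974 and 606 bp in doxycycline, higher in 3 of 3 same-numbered pairs, a difference of means of 124 bp, and the treatments overlapped.

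Single promoters were called as gained when a peak lay within 1 kb in 3 of 3 doxycycline lists and 0 of 3 DMSO lists, and as lost in the opposite case. H3K27ac was gained at 17 of the 2573 members (0.661%) and at 22 of all 19970 genes (0.11%), and lost at 8 members (0.311%) and 44 of all genes (0.22%). H3K4me1 was gained at 1 member against 25 of all genes (0.125%) and lost at 1 against 38 (0.19%). H3K4me2 was gained at 0 members against 6 of all genes (0.03%) and lost at 0 members and at 0 genes in all (0%). The H3K27ac counts depended on the lists used. Peaks of q 0.001 or less gave 9 members gained (19 of all genes) and 12 lost (43 of all genes), so that the greater number among members turned from gained to lost. With lists of equal length 21 members gained (34 of all genes) and 6 lost (35 of all genes). These are counts with no test, and the alternatives were chosen after seeing the data.

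Of the 17 members that gained H3K27ac, the 5 with the strongest peaks were HOXD10, LHX4, RIMBP3B, TMEM271 and MSX1. HOXD10 (chromosome 2, 176108790 to 176119937), a posterior HOX gene, had a fold enrichment of 3.99, 3.66 and 3.87 over input in the 3 doxycycline lists and no peak in DMSO. LHX4, a LIM-homeobox gene of motor neurons and pituitary, had 3.82, 2.83 and 2.41. MSX1, a homeobox gene of neural crest and limb, had 4.61, 3.70 and 2.89. TMEM271 had 3.66, 3.25 and 3.57. RIMBP3B belongs to a family of near-identical copies, and its value is uncertain for that reason. All these peaks had fold enrichments under 5, and the absence of a peak in DMSO is not an absence of signal. The neighbours HES4 and ISG15 on chromosome 1, also among the 17, had equal fold enrichments (3.12, 3.21 and 1.99) and equal −log10 q in the doxycycline lists. These are the values of a peak counted for both genes, so their gains are not separate. They also share an H3K27me3 region.

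Of the 8 members that lost H3K27ac, the 5 with the strongest peaks were NEBL, GATA4, OR1F1, CSGALNACT1 and BPI. NEBL (chromosome 10, 20779973 to 21293011), an actin-binding protein gene, had a fold enrichment of 5.19, 4.49 and 4.48 in the 3 DMSO lists and no peak in doxycycline. GATA4, a zinc finger factor of heart and endoderm, had 3.64, 3.47 and 2.34. CSGALNACT1, an enzyme of chondroitin sulfate synthesis, had 3.10, 2.63 and 2.33, BPI 2.90, 3.24 and 1.98 and OR1F1 2.65, 2.52 and 2.28. In H3K4me1 the single gained member was H3-7, a histone gene, and the single lost member DMRTC1B, both with near-identical copies. The lost calls stood against a lower calling depth in doxycycline, which cannot be told apart from the treatment.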

How the data were processed

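Per the labels, 34 samples of KELLY cells were listed, of which 4 were inputs without a list of their own. The authors aligned reads to hg38 with Bowtie2, filtered them with SAMtools and called peaks for each library with MACS2 2.1.1.20160309. The headers record broad calling for H3K4me1, H3K27ac and H3K27me3 (q-value 0.05, weaker regions linked at 0.1) and narrow calling for H3K4me2 and H3K4me3 (p-value 1e-05), with reads of 101 bp taken as single-ended. Each deposited list gives a pileup (fragment coverage, a signal), a −log10 p-value, a −log10 q-value and a fold enrichment (a ratio over local input). These depend on the depth and input of a library, so peaks were ranked and filtered by them only inside one list. Fold enrichments of single peaks are printed without a comparison between lists. Read counts per promoter were not used. The depth limits weak peaks, and means and SDs of shares cover the spread between libraries only. Per the file headers, replicates 1 and 3 of a treatment had inputs with equal read totals.

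Peaks were merged over the 6 lists of a mark where they shared at least 1 bp. Start sites were those of all GENCODE release 44 transcripts (146165 start sites of 19970 protein-coding genes). Calculations were run in python 3.11.15 with pandas 2.3.3, numpy 2.4.6 and scipy 1.17.1. Interval and test functions were tested on simulated data. Group differences were tested by exact sign flips over the 6 lists of a mark and treatment differences by exact permutation over 20 assignments, both two-sided, with Benjamini-Hochberg adjustment within families of 9 and 6. The family of 6 included 3 lengths of the marks that chose the members, whose p-values are not reported. The members, the 33 gene lists and the comparison groups were chosen with earlier results of these data known. Named genes were those of the adrenergic, mesenchymal, neurotrophin and Polycomb lists, the 5 members with the longest overlap, H3K4me3 or H3K27ac cover, the 5 strongest gained or lost promoters per mark, up to 4 members per list in alphabetical order, and others named beyond that rule to complete a short list or show a family, chosen after their values were seen. Alternatives were a promoter of 500 bp or 2.5 kb, canonical starts, stricter peaks, lists of equal length, other definitions of a member, a replicate block and leaving out libraries.

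Whether libraries of one number were prepared together is not given in the labels. Per the file headers, redundant reads made up 16 to 25% in the replicate 3 libraries and 3 to 16% in replicates 1 and 2. Replicate 3 also had the lowest H3K27ac share of members in both treatments (49.7 and 50.1%). The part of redundancy in this was not tested. Over the members' covered lengths, deviations of same-numbered libraries from the treatment mean had positive correlations in all 3 pairs for every mark but H3K27me3. The correlations were 0.171 to 0.286 for H3K4me1, 0.106 to 0.513 for H3K4me2, 0.250 to 0.566 for H3K4me3 and 0.0589 to 0.456 for H3K27ac. For H3K27me3 they were 0.738, -0.334 and 0.665 in replicates 1, 2 and 3. None of these was tested. Some genes and sequences that the rules above would name are not reported here.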

Additional observations from a re-analysis of the deposited data

How the results depend on the processing

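The number of bivalent genes was 1241 with peaks of q 0.001 or less and otherwise lay between 1996 and 3170, and between 2373 and 2833 when a replicate was left out of both treatments. Of the 1241, all 1241 were among the 2573. Leaving out a replicate left 4 lists, with which the exact test cannot go below 0.125, so calls were lost by construction. Without 1 replicate, the bivalent minus K4me3-only difference ranged from -50.9 to -45.0 percentage points for H3K27ac, 6.28 to 10.2 for H3K4me1 and -0.156 to 0.103 for H3K4me2, and from -2272 to -2153 bp (H3K27ac), -209.99 to -15.0 bp (H3K4me1) and -802 to -699 bp (H3K4me2) in length. From K27me3-only genes it ranged from 46.5 to 52.5 (H3K27ac), 77.5 to 78.8 (H3K4me1) and 88.6 to 94.6 (H3K4me2) percentage points. The H3K4me2 share difference of 0.0312 turned to -0.209 with canonical starts, -0.315 at q 0.001 or less, -0.0992 with both marks overlapping at one start and -1.58 in genes with 1 start (these last 2 chosen after seeing the data). The H3K4me1 length difference became -264 bp and passed the test at 2.5 kb, and turned to 420.0 bp at q 0.001 or less and 97.2 bp in genes with 1 start. The causes were not tested.

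Doxycycline minus DMSO changed sign in H3K27ac share at 2.5 kb (-0.526) and in H3K4me1 share at q 0.001 or less (3.95) and with lists of equal length (2.15). Leaving out 1 library gave -1.72 to 2.08 for H3K27ac, -1.19 to 0.842 for H3K4me1, and -42.5 to 120 bp for H3K4me3 length, 0.155 to 1.13 for H3K4me2, 277 to 1545 bp for H3K27me3 length and 35.2 to 261 bp for the overlap. With the replicate block, the paired sign-flip test gave the same differences, for example 0.220 percentage points in H3K27ac and 0.713 in H3K4me2 (exact p = 0.5 for each, 0.25 being the smallest possible with 3 pairs), and changed no call. With alternatives chosen after seeing the data, H3K27ac was gained at 9 members (q 0.001 or less, 19 of all genes) to 21 (lists of equal length, 34 of all genes) and lost at 6 (lists of equal length, 35) to 12 (q 0.001 or less, 43). H3K4me1 was gained at 1 (2.5 kb, 19) to 7 members (lists of equal length, 99) and lost at 0 (lists of equal length, 41) to 7 (500 bp, 90).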
